A study of Mus musculus with 9 samples.

Results

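Bcl11a, Bcl11b, Satb1, Prdm8 and Bhlhe22 are 5 transcriptional regulators that pattern neurons and, for several of them, blood cells, and they were followed here through the depth of the early postnatal mouse spinal cord. All probe sets that the platform annotation assigns to 1 of these symbols were taken, which gave 17 probe sets of 4 genes out of 45037 probe sets and 18193 named genes in all. No probe set carried the symbol Bhlhe22 in that annotation, so Bhlhe22 was not analysed here and stays a member without values. Of the 17 probe sets, 14 passed a filter on low values: 6 of 7 for Bcl11a, 4 of 4 for Bcl11b, 3 of 5 for Satb1 and the single one of Prdm8.

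The series profiled spinal cord of mice at postnatal day 6 on 9 Affymetrix arrays. From each of 3 animals the dorsal, intermediate and ventral cord was taken separately (n = 3 arrays per region). Every animal carried the GAD65-GFP genotype, a transgene in which a fluorescent protein is driven from the promoter of Gad2, the gene of the GABA-making enzyme GAD65, so there was no group without the transgene. No step of sorting for fluorescence is mentioned in the labels, nor a sex, strain or treatment. The topic of the series is dystonia-associated genes in the circuits of spinal GABAergic interneurons, and setting the 3 regions side by side asks where along the depth of the cord a gene is used. In pieces of whole tissue, fewer cells of a type and less RNA per cell cannot be told apart.

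Bcl11a and Bcl11b are paralogous zinc-finger proteins that bind DNA and recruit 2 kinds of chromatin complex, the NuRD repressor and the BAF remodeller. In the mouse dorsal horn, the part of the cord that receives touch, itch and pain input, Bcl11a is needed for neurons to take on their final shape and for sensory axons to find their targets, and Frzb, a secreted Wnt antagonist, has been reported to act downstream of it. Satb1 folds chromatin by tethering AT-rich DNA and is known from T cells and cortical interneurons. Prdm8 and Bhlhe22, a PR-domain protein and a basic helix-loop-helix (bHLH) protein, form a repressor pair in the mouse cortex, where the adhesion gene Cdh11 is a reported target, and Bhlhe22 is required for a class of inhibitory dorsal horn interneurons.

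Because both Bcl11 paralogs were high in the same pieces, with Prdm8 following another order, the sequence upstream of 1 RefSeq transcript start of each is shown first, with that of Frzb as the reported target. For Bcl11a, Bcl11b and Prdm8 this start, and the window before it, lie inside the span that the RefSeq gene table gives the gene, so other transcripts start further upstream, whereas the Frzb window abuts the end of its gene. Each window holds 250 bases on the gene's own strand, 5′ to 3′, in the build GRCm38.p6. Capitals mark E-boxes (CANNTG, a palindromic frame read alike on both strands), the sequence that bHLH proteins bind. The windows are chr11:24080445-24080694 (+ strand) for Bcl11a, chr12:108003415-108003664 (- strand) for Bcl11b, chr5:98180619-98180868 (+ strand) for Prdm8 and chr2:80447397-80447646 (- strand) for Frzb.
Bcl11a: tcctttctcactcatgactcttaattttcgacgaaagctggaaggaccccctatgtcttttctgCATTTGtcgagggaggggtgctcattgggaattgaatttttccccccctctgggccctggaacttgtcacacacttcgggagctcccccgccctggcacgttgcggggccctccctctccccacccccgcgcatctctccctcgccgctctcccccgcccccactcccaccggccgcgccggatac
Bcl11b: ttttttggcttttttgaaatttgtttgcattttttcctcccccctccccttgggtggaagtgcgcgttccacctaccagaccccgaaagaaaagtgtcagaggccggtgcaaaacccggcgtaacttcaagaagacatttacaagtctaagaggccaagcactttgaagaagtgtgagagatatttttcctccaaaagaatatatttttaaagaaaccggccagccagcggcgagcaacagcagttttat
Prdm8: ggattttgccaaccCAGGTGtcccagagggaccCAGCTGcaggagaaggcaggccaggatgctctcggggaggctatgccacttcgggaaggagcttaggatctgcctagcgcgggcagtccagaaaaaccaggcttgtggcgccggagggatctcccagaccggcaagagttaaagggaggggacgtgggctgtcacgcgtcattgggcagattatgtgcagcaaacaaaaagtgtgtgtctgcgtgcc
Frzb: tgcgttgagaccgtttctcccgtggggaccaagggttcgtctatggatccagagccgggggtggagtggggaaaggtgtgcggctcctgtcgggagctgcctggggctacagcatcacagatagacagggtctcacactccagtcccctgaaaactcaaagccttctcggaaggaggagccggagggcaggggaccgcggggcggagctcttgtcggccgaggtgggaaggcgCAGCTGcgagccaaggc

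The 4 windows differed in their E-boxes. The Bcl11a window held 1, CATTTG, 186 bases before the start, and the Bcl11b window held 0. Prdm8 had 2 of them close together, CAGGTG at 236 and CAGCTG at 217 bases before the start, and Frzb had 1, CAGCTG, at 17 bases. An E-box was present in 66.2% of 32851 RefSeq windows of the same length, so its presence sets none of these genes apart. Neither CATATG, found in 3.46% of all windows, nor TGACCA on either strand, found in 11.4%, occurred in any of the 4. The GC content was 62.0% for Bcl11a, 44.8% for Bcl11b, 59.6% for Prdm8 and 64.4% for Frzb. Satb1 has 5 annotated starts and its windows are not shown, and Bhlhe22 has no entry in the table used.

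The arrays were alike in overall level. Array medians lay between 3.66 and 3.75 on a scale read as log2, 36.0% to 36.3% of the probe sets on each array sat at a common minimum of 2.15 (the floor), and arrays of 1 region correlated with each other at 0.998 to 0.9993 across probe sets. The regions differed at a large share of the 23675 probe sets tested, so the count of members that changed is given throughout beside the share of all features. Dorsal and ventral pieces followed their labels, in that 9 of 9 tested dorsal horn transcription factor genes rose in dorsal over ventral cord. Prph, a motor neuron filament, averaged 2.15, 2.26 and 9.41 in dorsal, intermediate and ventral pieces. It passed the filter only through the ventral pieces, so its calls against them lend no support. Of 5 ventral neuron genes tested, 4 were lower in dorsal (34.1% of all genes) and 2 in intermediate (29.9%) against ventral cord. Isl1 averaged 2.41, 6.94 and 6.92 and Esrrg 6.94, 9.83 and 10.01 in the same order, so neither set intermediate apart from ventral pieces. With its dorsal mean under the filter minimum, the call of Isl1 in dorsal against ventral cord lends no support either. Other defining ventral genes (the cholinergic genes Chat, Slc18a3 and Slc5a7, and En1 and Evx1) were listed at the floor on all 9 arrays, the ventral ones included.

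Taking each gene at its brightest probe set, the one with the highest mean, a limma fit with an adjusted p under 0.05 as the threshold put Bcl11a, Bcl11b and Satb1 lowest in ventral cord and Prdm8 highest in intermediate cord. The brightest probe sets of the 4 measured members gave 3 higher (Bcl11a, Bcl11b, Satb1) and 1 lower (Prdm8) in dorsal against ventral cord, where 29.8% of all genes were higher and 34.1% lower. All 4 were higher in intermediate against ventral cord, where 28.2% of all genes were higher and 29.9% lower. In dorsal against intermediate cord, 1 was higher (Bcl11a), against 17.4% of genes, 1 was lower (Prdm8), against 19.4%, and 2 did not pass. Over the 14 probe sets, 13 were higher and 1 lower in dorsal against ventral cord (30.1% and 29.6% of all probe sets), 13 were higher and 0 lower in intermediate against ventral cord (25.7% and 26.3%), and 9 were higher and 1 lower in dorsal against intermediate cord (18% and 16%). In either direction, 59.7%, 52% and 34% of all probe sets passed in these 3 comparisons. Regions did not overlap at any of the 14 probe sets in any comparison, which was true of 65.7%, 61.4% and 46% of all probe sets tested. Both comparisons with ventral cord share the ventral arrays, so their calls are not separate evidence. Among the 14, 1447334_at of Bcl11a and 1450339_a_at of Bcl11b had ventral means of 2.23 and 2.69, under the filter minimum of 3.15. They passed that filter only through the other regions, so their calls against ventral cord lend no support. After each array was centred on its median, the share of higher calls among all probe sets in dorsal against intermediate cord was 37.8%, against 52.9% as deposited. All 4 members then passed in that comparison, with Bcl11a and Bcl11b higher and Satb1 and Prdm8 lower. The median difference over all tested genes was -0.022, -0.0036 and -0.0042 for dorsal minus ventral, intermediate minus ventral and dorsal minus intermediate, with the members' medians at 2.24, 2.05 and 0.19.

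Bcl11a was high in dorsal and intermediate cord and low in ventral cord. Its brightest probe set, 1419406_a_at, read 11.07, 11.46 and 11.17 log2 in the dorsal pieces of animals 1, 2 and 3, then 10.71, 10.71 and 10.70 in the intermediate pieces and 7.41, 7.43 and 7.25 in the ventral pieces. The 3 regions did not overlap, and the ventral pieces stood far below both others. Region means were 11.23 ± 0.20, 10.71 ± 0.01 and 7.36 ± 0.10 in dorsal, intermediate and ventral cord (SD, n = 3 each).

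Expressed as differences, Bcl11a rose by 3.87 ± 0.09 log2 in dorsal over ventral cord, which is 14.6-fold (± gives the standard error of the model, adjusted p = 1.23e-05), and by 3.34 ± 0.09 in intermediate over ventral cord, which is 10.2-fold (adjusted p = 5.75e-05). The step between dorsal and intermediate cord was small beside these, 0.52 ± 0.09 or 1.44-fold (adjusted p = 0.00838). That smaller call was lost when animal 2 or animal 3 was left out (adjusted p = 0.0552 and 0.0862) and when only the arrays of the 2 regions were fitted (adjusted p = 0.0523). Among 11585 genes, each taken at its brightest probe set, Bcl11a ranked 42 by its dorsal minus ventral difference and 21 by its intermediate minus ventral difference.

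Of 6 Bcl11a probe sets tested, 5 had a clear regional step and 1 did not. The 5 had dorsal minus ventral differences of 3.43 to 4.74, intermediate minus ventral differences of 2.88 to 3.99 and dorsal minus intermediate differences of 0.52 to 0.75, all past the threshold. The values 3.43 and 2.88 are those of 1447334_at, whose calls against ventral cord lend no support. The next lowest, 3.76 and 3.18, are those of 1426552_a_at. For dorsal minus intermediate the call was lost at 1456632_at in 11 of 19 alternative fits, at 1426552_a_at in 9 of 17 and at 1447334_at in 7 of 17. The exception was 1447335_x_at, whose suffix marks probes that can also match other transcripts. It read 4.44, 4.30 and 4.34 in dorsal, 4.14, 3.85 and 3.91 in intermediate and 3.84, 3.79 and 3.84 in ventral pieces. Its dorsal minus ventral difference was 0.53 ± 0.06 (adjusted p = 0.000592), and its intermediate minus ventral difference of 0.14 ± 0.06 did not pass (adjusted p = 0.083). Its neighbour in the annotation, 1447334_at, designed from the same sequence record, had a dorsal minus ventral difference of 3.43 ± 0.11. In ventral cord 1447334_at read 2.23 on all 3 arrays, near the floor of 2.15 and under the filter that it passed through the other regions, so that difference has the floor as its lower end. The last Bcl11a probe set, 1453814_at, stood at the floor on all 9 arrays. Identical values within a region, which shrink the measured spread, occurred in this gene: 1447334_at and 1426552_a_at gave the same value in all 3 intermediate pieces, 5.11 and 6.61.

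Bcl11b followed the same order, high in dorsal and intermediate cord and low in ventral cord. Probe set 1435227_at, its brightest, read 11.11, 11.38 and 11.16 in dorsal, 10.25, 10.25 and 10.21 in intermediate and 6.50, 6.17 and 5.08 in ventral pieces. The ventral values lay apart from the rest and were also the most scattered, with a mean of 5.91 ± 0.74 against 11.22 ± 0.15 in dorsal and 10.24 ± 0.02 in intermediate cord (SD, n = 3 each). Dorsal cord exceeded ventral cord by 5.30 ± 0.30, or 39.4-fold (adjusted p = 7.85e-05), and intermediate cord exceeded ventral cord by 4.33 ± 0.30, or 20.05-fold (adjusted p = 0.000248). These differences ranked 13 and 6 among the 11585 genes.

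Between dorsal and intermediate cord the Bcl11b probe sets split. The brightest gave 0.98 ± 0.30, or 1.97-fold, and did not pass (adjusted p = 0.0565), although the 2 regions did not overlap and all 3 animals had the same sign, with 0.85, 1.13 and 0.94. The other 3 probe sets passed, with 1.21 ± 0.06 for 1452966_at (adjusted p = 0.000295), 1.11 ± 0.15 for 1450339_a_at (adjusted p = 0.00473) and 0.86 ± 0.12 for 1438784_at (adjusted p = 0.00459). Their dorsal minus ventral differences were 5.32, 5.70 and 3.04, of which that of 1450339_a_at is set against ventral values near the floor (2.56 to 2.76). The ventral arrays of the brightest probe set, its most scattered ones, enter the shared error: without the ventral piece of animal 1 or of animal 3, the dorsal minus intermediate difference did pass.

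**Figure D1:**
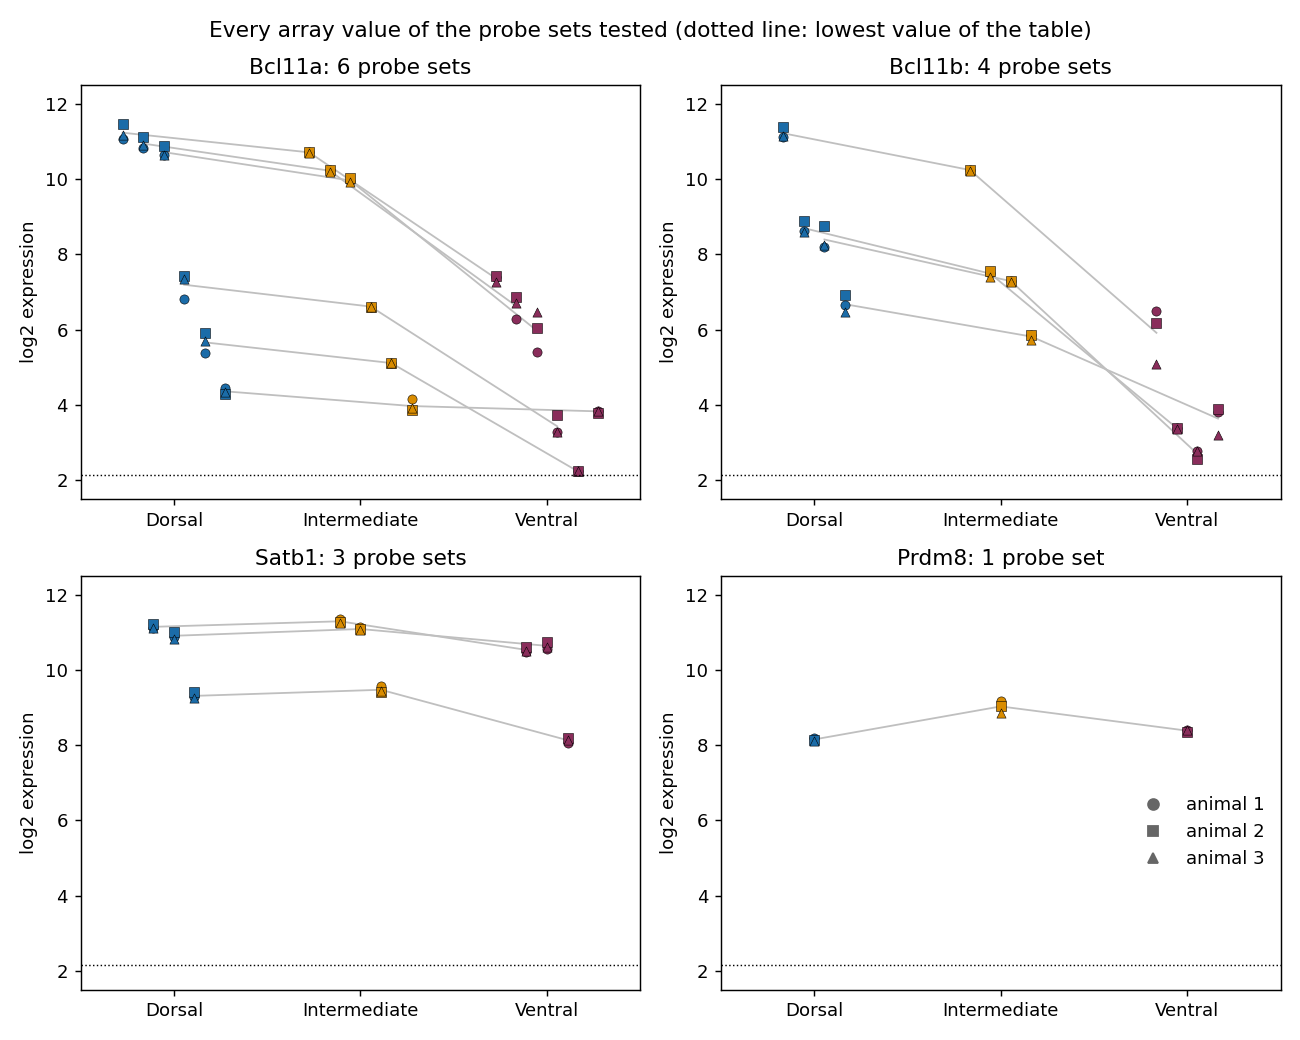
Log2 expression (vertical axis) of the 14 member probe sets tested, in dorsal, intermediate and ventral pieces. Each point is 1 array, its shape the animal, the grey line joins region means of 1 probe set and the dotted line is the floor, 2.15; 9 of the 10 Bcl11a and Bcl11b probe sets drop steeply only at the ventral pieces, the 3 Satb1 probe sets are lowest in the ventral pieces by 0.27 to 1.34 and Prdm8 is highest in the intermediate pieces.

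The paralogs were compared within each array as the log2 difference Bcl11a minus Bcl11b, brightest probe sets. Since 2 probe sets have different efficiencies, only its change between regions has a meaning. It averaged 0.02 ± 0.06 in dorsal, 0.47 ± 0.02 in intermediate and 1.45 ± 0.65 in ventral cord (SD, n = 3 each), and no 2 regions overlapped. Its change was -1.43 for dorsal minus ventral, -0.98 for intermediate minus ventral and -0.45 for dorsal minus intermediate. In a two-sided exact permutation test each of the 3 gave p = 0.1, the smallest p that 3 arrays against 3 allow, and the 3 values adjusted together were also 0.1. The threshold of 0.05 could not be reached in this design. Which paralog had the larger difference depended on the probe set: 1438784_at of Bcl11b differed by 3.04 between dorsal and ventral cord and by 2.18 between intermediate and ventral cord, less than each of the 5 Bcl11a probe sets with a clear step.

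Satb1 was high in every region and only modestly lower in ventral cord. Probe set 1416007_at read 11.11, 11.20 and 11.11 in dorsal, 11.34, 11.28 and 11.24 in intermediate and 10.47, 10.60 and 10.51 in ventral pieces. The ventral pieces were lowest in all 3 animals, and the intermediate ones narrowly highest. The rise in dorsal over ventral cord was 0.61 ± 0.05, or 1.53-fold (adjusted p = 0.0002), and in intermediate over ventral cord 0.76 ± 0.05, or 1.69-fold (adjusted p = 0.000184). Dorsal and intermediate cord were neighbours in this order that did not differ past the threshold, at -0.15 ± 0.05 (adjusted p = 0.0619).

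Both further tested Satb1 probe sets had this order too. Those differences were 1.18 (dorsal minus ventral) and 1.34 (intermediate minus ventral) for 1436182_at, and 0.27 and 0.45 for 1416008_at, all past the threshold, so the probe sets agree on the direction and not on the size of the step. The dorsal minus ventral call of 1416008_at (adjusted p = 0.00766) was lost without animal 3 (adjusted p = 0.0611). Their dorsal minus intermediate differences, -0.16 and -0.18, did not pass (adjusted p = 0.111 and 0.0511). Of the 2 untested probe sets, 1439315_at was at the floor on all arrays, and 1439449_at read 2.79, 3.93 and 3.12 in dorsal, 2.64, 2.61 and 2.75 in intermediate pieces and stood at the floor in the ventral ones.

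Prdm8 had a different profile, with its maximum in the middle of the cord. Its single probe set, 1455925_at, read 8.20, 8.13 and 8.11 in dorsal, 9.17, 9.05 and 8.86 in intermediate and 8.40, 8.35 and 8.40 in ventral pieces. The intermediate pieces were above both other regions in every animal. Intermediate cord exceeded ventral cord by 0.65 ± 0.06, or 1.56-fold (adjusted p = 0.000726), and dorsal minus intermediate was -0.88 ± 0.06, a level 1.84-fold higher in intermediate cord (adjusted p = 0.000711). By that difference Prdm8 ranked 313 from the low end among 11585 genes. Dorsal cord was also slightly below ventral cord, at -0.23 ± 0.06 (adjusted p = 0.0255), but this call was lost in 8 of 19 alternative fits, among them those without animal 1 (adjusted p = 0.0788), without animal 2 (adjusted p = 0.133) and with no filter on low values (adjusted p = 0.0722). With Bhlhe22 not analysed here, the ratio of the repressor partners could not be set up.

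**Figure D2:**
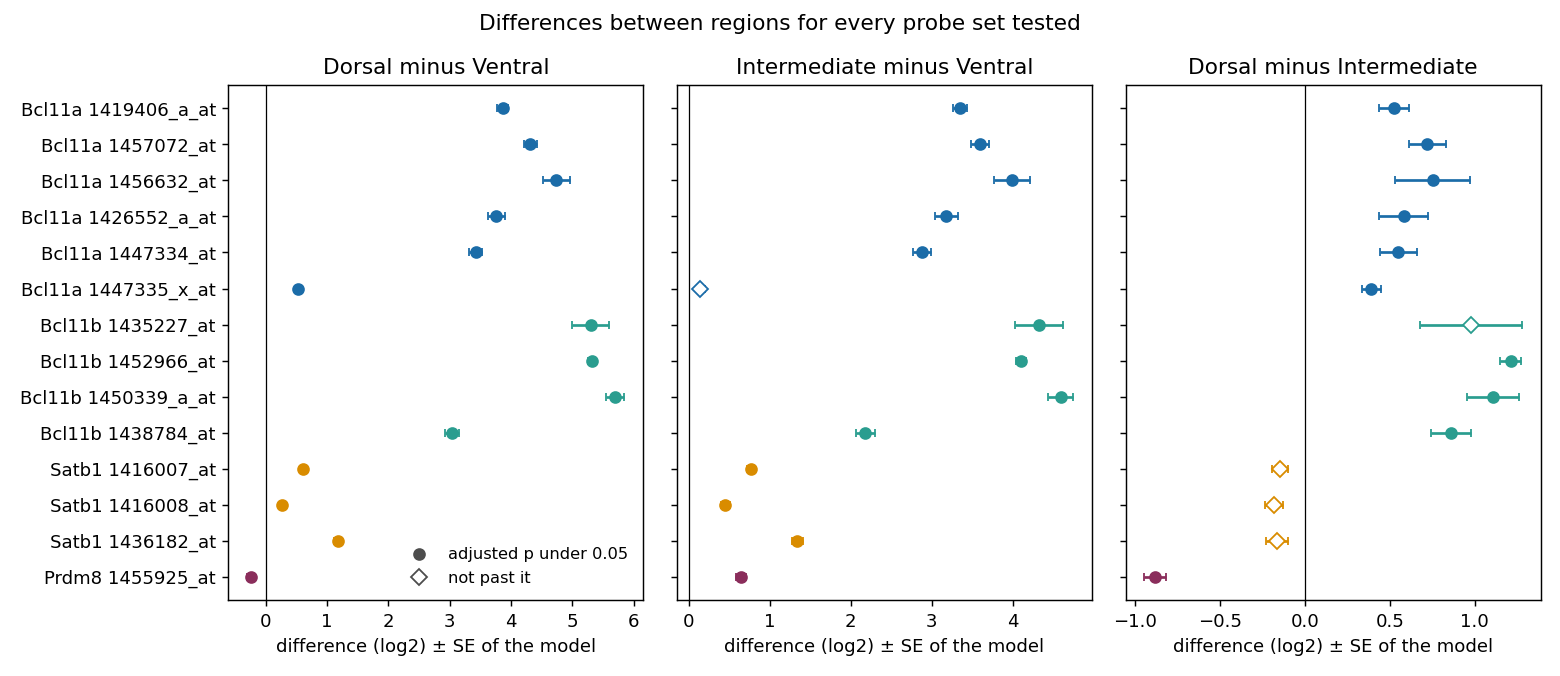
Differences between regions (log2, horizontal axis, bars are the standard error of the model) for the 14 member probe sets tested; filled circles passed an adjusted p of 0.05 and open diamonds did not. The Bcl11a and Bcl11b probe sets other than 1447335_x_at lie between 2.18 and 5.70 against ventral cord, whereas between dorsal and intermediate cord no member difference exceeds 1.21; the horizontal scales of the 3 panels differ.

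Of the reported targets, Frzb was highest in dorsal cord and Cdh11 in ventral cord. Frzb, on probe set 1416658_at, read 11.26, 11.30 and 11.04 in dorsal, 7.88, 8.52 and 7.32 in intermediate and 5.999, 6.27 and 6.20 in ventral pieces. Only the dorsal pieces were high, in contrast to Bcl11a, whose intermediate pieces were high as well. Frzb rose by 5.05 ± 0.22 in dorsal over ventral cord (adjusted p = 3.99e-05), by 3.30 ± 0.22 in dorsal over intermediate cord (adjusted p = 0.000575) and by 1.75 ± 0.22 in intermediate over ventral cord (adjusted p = 0.00165). A second Frzb probe set, 1448424_at, read 7.61, 7.60 and 7.42 in dorsal pieces and 2.31 to 2.35 in all intermediate and ventral ones. Close to the floor as it was there, it showed an intermediate minus ventral difference of 0.02 (adjusted p = 0.869), so the probe sets disagree on that step.

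Cdh11 ran against the dorsal members. Its values on 1450757_at were 11.10, 10.81 and 11.08 in dorsal, 11.26, 11.25 and 11.28 in intermediate and 11.81, 11.91 and 11.83 in ventral pieces. All ventral pieces lay above the rest, and the differences were -0.86 ± 0.08 for dorsal minus ventral (adjusted p = 0.000444) and -0.59 ± 0.08 for intermediate minus ventral (adjusted p = 0.00236). Dorsal minus intermediate, -0.27 ± 0.08, did not pass (adjusted p = 0.0545, against 0.0286 without the animal as a block). Thus Prdm8 and Cdh11 were both lower in dorsal than in ventral cord, while in intermediate against ventral cord Prdm8 was higher and Cdh11 lower. Another Cdh11 probe set, 1435120_at, gave -0.42, -0.35 and -0.07 for the same 3 differences.

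To describe the shape of the dorsal profiles, the intermediate level was placed between the dorsal (0%) and the ventral level (100%) on the log2 scale, a measure added after the values were seen. Bcl11a lay 13.5% of the way (9.72% to 18.5% over the 3 animals) and Bcl11b 18.4% (15.5% to 21.7%), so that for both the intermediate level was nearer to the dorsal one. Over all their probe sets but 1447335_x_at, which lay at 73.5%, the positions were 13.5% to 16.7% for Bcl11a and 18.4% to 28.3% for Bcl11b. Frzb lay at 65.3% (55.4% to 76.8%), beyond the range of both paralogs in every animal. Among dorsal horn transcription factors, Pou4f1 (21.0%) was near the Bcl11 genes, Ebf3 (34.2%) and Lbx1 (41.0%) lay between, and Ebf1 (61.8%), Prrxl1 (66.3%), Lmx1b (67.9%) and Ebf2 (73.6%) were near Frzb. Maf and Rorb, also tested, were not placed. Their means were 12.84, 10.84 and 11.06, and 9.87, 8.90 and 9.03, in dorsal, intermediate and ventral cord. For both, intermediate lay below ventral cord, short of the threshold. The ventral end of the scale was near the floor for Ebf2 and Lmx1b, with means of 2.27 and 2.53, so their positions are approximate. The inhibitory enzyme gene Gad1 stood at 32.7% and the peptide genes Npy, Gal and Pdyn at 42.1%, 68.2% and 70.8%. These positions are descriptions of 3 animals, with no test.

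**Figure D3:**
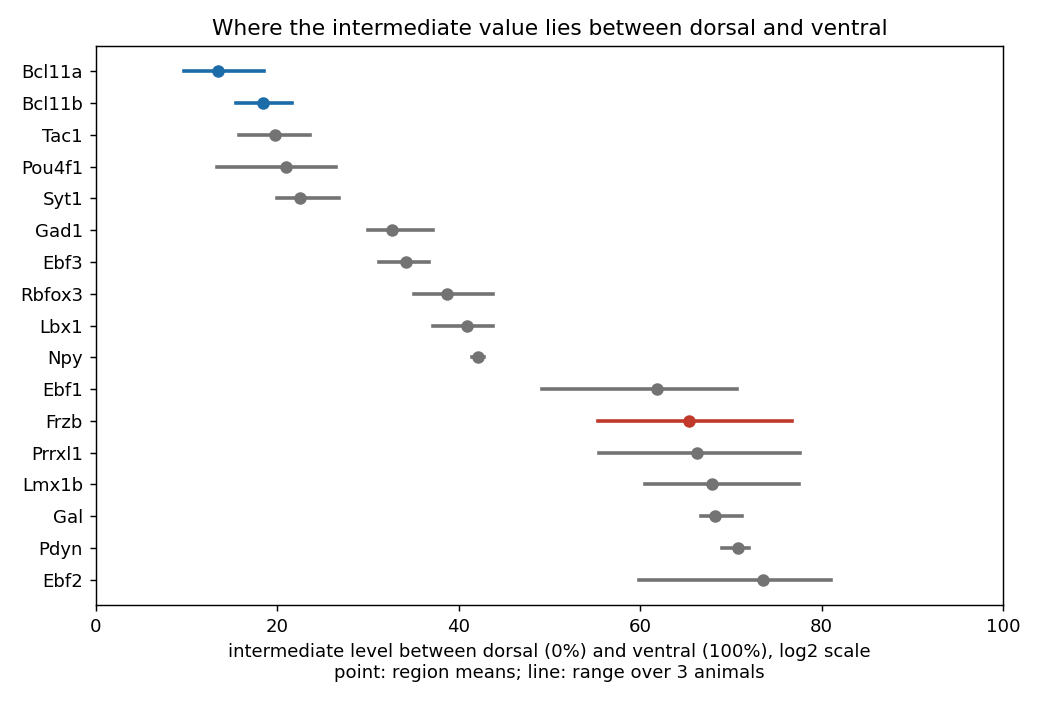
Position of the intermediate level between the dorsal level (0%) and the ventral level (100%) on the log2 scale, for genes higher in dorsal cord; points come from region means and lines span the 3 animals. Bcl11a (13.5%) and Bcl11b (18.4%) stand at the dorsal end, and Frzb (65.3%) among the genes closer to their ventral level. Of the pan-neuronal genes only Syt1 (22.5%) and Rbfox3 (38.7%) were placed. Among those not placed, Snap25, Stmn2, Tubb3, Elavl4, Syp and Uchl1 had intermediate means above their dorsal ones. Map2 and Elavl3 had intermediate means just below their dorsal ones, and Nefl and Nefm were highest in ventral cord.

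The genes whose profile was nearest to each member, by the root mean square (rms) difference of the 9 values after each gene was centred on its mean, were taken from 11584 others. For Bcl11a these were Tac1, which encodes the substance P precursor of dorsal horn neurons (rms 0.15 log2), the prokineticin receptor gene Prokr2 (0.21) and the RNA-binding protein gene Celf6 (0.22). Tac1 averaged 12.51, 11.76 and 8.69 in dorsal, intermediate and ventral cord and lay 19.8% of the way. For Bcl11b they were Mab21l1 (0.30), the sensory and dorsal horn POU factor gene Pou4f1 (0.57) and the homeobox gene Hoxb9 (0.58), which are larger distances than for the other members. Satb1 was nearest to the sialyltransferase gene St8sia4 (0.03), Fam13b (0.04) and the proton pump subunit gene Atp6v1c1 (0.05). Prdm8 was nearest to the mitochondrial folate enzyme gene Mthfd2l (0.07), the metalloreductase gene Steap2 (0.08) and the Arf GTPase regulator gene Asap1 (0.08). The 9 arrays share 3 regions and 3 animals, so likeness here is mostly likeness of region means.

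**Figure D4:**
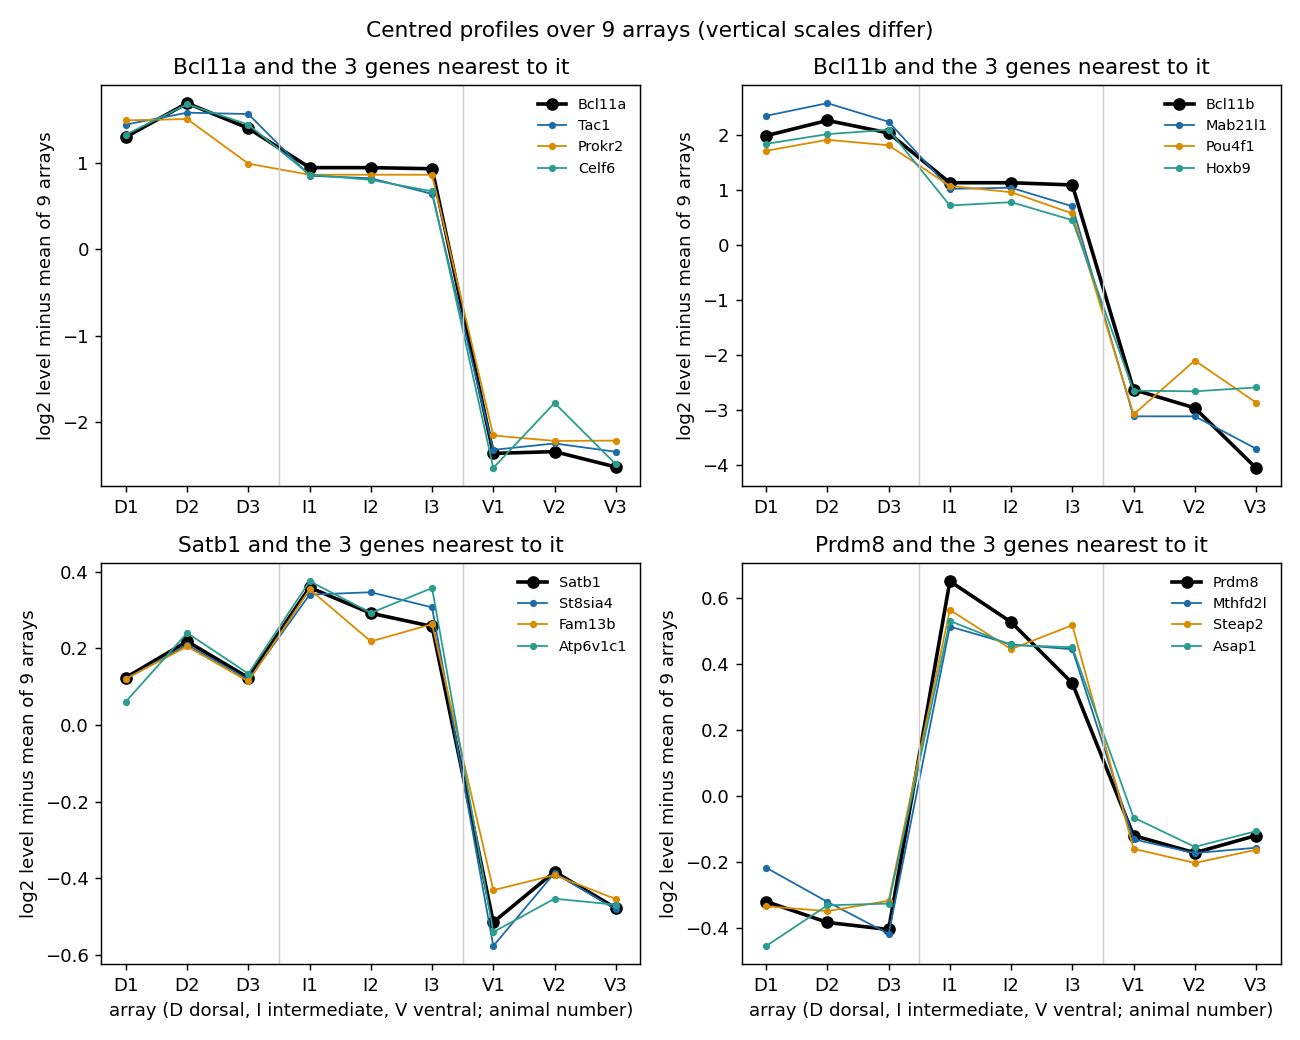
Log2 level minus each gene's mean over 9 arrays (vertical axis, scales differ between panels) for the 4 measured members, in black, and the 3 genes nearest to each, in colour; arrays are ordered dorsal (D), intermediate (I) and ventral (V) with the animal number. Bcl11a and Tac1 overlie closely (rms 0.15), while the genes nearest to Bcl11b differ from it by 0.30 to 0.58, most visibly in the ventral pieces.

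Genes of both cofactor complexes of the Bcl11 proteins were found in either direction, and their counts are read against the shares of all genes. In dorsal against ventral cord 29.8% of all genes were higher and 34.1% lower. The shares were 28.2% and 29.9% in intermediate against ventral cord, and 17.4% and 19.4% in dorsal against intermediate cord. Of 14 NuRD genes tested, 4 were higher and 4 lower in dorsal against ventral cord, 2 and 6 in intermediate against ventral cord, and 4 and 0 in dorsal against intermediate cord. The remodelling subunit genes Chd3 and Chd5 rose most, by 1.68 ± 0.09 and 1.52 ± 0.05 in dorsal over ventral cord (adjusted p = 6.61e-05 and 2.04e-05). The related Chd4 did not pass there (-0.09, adjusted p = 0.342) and was lower in intermediate against ventral cord (-0.47, adjusted p = 0.00421). Gatad2a (-0.92) and the methyl-CpG binding subunit gene Mbd2 (-0.73) were lower in dorsal against ventral cord. Chd5 is known mainly from neurons. Of 17 BAF genes, 9 were higher and 2 lower in dorsal against ventral cord, 8 and 3 in intermediate against ventral cord, and 5 and 1 in dorsal against intermediate cord. The neuron-specific subunit genes Dpf1 (1.70) and Actl6b (1.21), the ATPase gene Smarca2 (1.38) and Smarcd3 (0.89) had the largest dorsal minus ventral differences. List medians were -0.05 for NuRD and 0.28 for BAF, beside -0.02 for all tested genes.

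The relatives of the other members are likewise given beside the 29.8% of all genes higher and 34.1% lower in dorsal against ventral cord. For intermediate against ventral cord these shares were 28.2% and 29.9%, and for dorsal against intermediate cord 17.4% and 19.4%. Of 14 PRDM family genes listed besides Prdm8, 7 were tested; in dorsal against ventral cord Prdm10 (0.90) and Prdm15 (0.35) were higher and Mecom (-2.14), known as a proto-oncogene in blood, was lower, and the remaining 4 did not pass. In intermediate against ventral cord 1 was higher (Prdm10) and 1 lower (Mecom), and in dorsal against intermediate cord 2 were higher and 2 lower. Of 16 bHLH relatives of Bhlhe22, 7 were at the floor on all arrays, among them the progenitor genes Atoh1, Ptf1a and Neurog1, and 6 were tested. Of these, 2 were higher and 3 lower in dorsal against ventral cord, 2 and 3 in intermediate against ventral cord, and 0 and 5 in dorsal against intermediate cord. Neurod6 was higher by 3.67 in dorsal and by 4.65 in intermediate against ventral cord, with means of 10.05, 11.02 and 6.38 in dorsal, intermediate and ventral cord. Neurod1 averaged 5.50, 7.30 and 4.58 in the same order, so that both, like Prdm8, were highest in the intermediate pieces. The oligodendrocyte lineage genes Olig2 (-1.31) and Olig1 (-0.94) and the stress- and clock-related Bhlhe40 (-0.93) were lower in dorsal than in ventral cord. Of the cut homeobox genes listed as relatives of Satb1, Cux1 had a dorsal minus ventral difference of 0.30 (adjusted p = 0.00271) and Cux2 one of -0.06 (adjusted p = 0.462).

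A further list held genes of inhibitory dorsal horn neurons, of which a class depends on Bhlhe22 in mice, and general inhibitory genes. In dorsal against ventral cord 6 of 7 tested genes of this list were higher, with 0 lower (29.8% and 34.1% of all genes). In intermediate against ventral cord 7 of 7 were higher (28.2% of all genes). In dorsal against intermediate cord 4 were higher and 3 lower (17.4% and 19.4% of all genes). Npy (4.99), Gad1 (3.25), Pdyn (3.22) and Gal (2.92) had the largest dorsal minus ventral differences. The 3 that were lower in dorsal than in intermediate cord were Gad2, which encodes GAD65, the vesicular GABA transporter gene Slc32a1, and Nos1, which was named after its values were seen. Gad2 averaged 10.43, 11.69 and 9.76 and Slc32a1 10.38, 11.13 and 9.58 in dorsal, intermediate and ventral cord. Both were highest in the intermediate pieces, where Prdm8 was highest too, but for them dorsal cord exceeded ventral cord.

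Levels of cell type marker genes also differed between the regions, as did those of many genes. Of all genes, 29.8% were higher and 34.1% lower in dorsal against ventral cord. The shares were 28.2% and 29.9% in intermediate against ventral cord, and 17.4% and 19.4% in dorsal against intermediate cord. Of 12 pan-neuronal genes, 9 were higher and 2 lower in dorsal against ventral cord (median 0.48), 10 and 1 in intermediate against ventral cord (median 0.82), and 2 and 5 in dorsal against intermediate cord (median -0.21). Syt1, a synaptic vesicle calcium sensor gene, was 2.91 higher and the neuronal splicing factor gene Rbfox3 1.57 higher in dorsal than in ventral cord, whereas the neurofilament genes Nefm (-1.70) and Nefl (-1.16) were lower. In intermediate against ventral cord, the neuronal median of 0.82 stood beside differences of 0.76 for Satb1, 0.65 for Prdm8, 3.34 for Bcl11a and 4.33 for Bcl11b. Of 11 oligodendrocyte genes, 10 were lower in dorsal and 10 in intermediate against ventral cord, with summed levels of 16.75 to 16.89, 16.74 to 16.99 and 17.51 to 17.58 log2 in dorsal, intermediate and ventral arrays. Of 8 astrocyte genes, 8 were lower in dorsal and 7 in intermediate against ventral cord (summed levels 16.29 to 16.44, 16.57 to 16.67 and 17.01 to 17.05). The part of these cell types in the member differences was not tested.

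Markers of tissue around the cord were lowest in intermediate pieces. Beside the counts below, 28.2% of all genes were higher and 29.9% lower in intermediate against ventral cord. In dorsal against intermediate cord 17.4% were higher and 19.4% lower, and in dorsal against ventral cord 34.1% were lower. Meningeal and fibroblast genes were lower in 8 of 8 cases in intermediate against ventral cord and higher in 7 of 8 in dorsal against intermediate cord, with summed levels of 13.56 to 14.70, 11.31 to 11.72 and 13.97 to 14.40 in dorsal, intermediate and ventral arrays. The 3 Schwann cell genes tested (summed levels 12.13 to 14.16, 8.41 to 9.43 and 12.66 to 13.22) and the 8 microglial genes tested (8 of 8 lower in intermediate than in ventral cord, summed levels 11.97 to 12.24, 11.42 to 11.67 and 12.22 to 12.38) had the same order. Endothelial and mural genes were lower in 6 of 6 cases in dorsal and in intermediate against ventral cord, with summed levels of 12.45 to 12.72, 12.85 to 13.00 and 13.45 to 13.47. Of the 5 ependymal genes tested, 5 were lower in dorsal than in intermediate cord, and in intermediate against ventral cord 2 were higher and 3 did not pass (summed levels 5.91 to 6.34, 8.50 to 9.02 and 8.19 to 8.36). The part of these cell types in the intermediate peak of Prdm8 was not tested. Because Bcl11b and Satb1 are also T cell genes and Bcl11a is also used in sensory ganglia, markers of those cells were read as well: 7 of 8 lymphocyte genes were at the floor on all 9 arrays and Cd8a averaged at most 2.97, and of 5 sensory ganglion genes 3 were at the floor while Scn11a averaged at most 2.62 and P2rx3 2.19.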

How the data were processed

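Total RNA (500 ng) was converted to biotin-labelled cRNA for the arrays, per the labels' protocols. The authors' deposited table holds 1 value per probe set and array. No label states its scale. The deposited values were read as log2 because they run from 2.15 to 16.27, and every fold rests on that. The authors' method of summarising, normalising and flooring the signals was not stated in the sources used here. The floor is the lowest value, with a tolerance of 0.01.

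Gene symbols came from the platform annotation: 34945 probe sets had 1 symbol, 932 several and 9160 none, and the last groups were left unnamed. Of the single symbols 34741 matched a RefSeq gene table by Entrez number, and 0 changed. Probe sets with a mean of at least 3.15, 1 log2 unit above the floor, entered the fit, made with limma 3.58.1 under R 4.3.3 (data.table version 1.17.8). Region and animal were fitted on all 9 arrays with lmFit and eBayes (4 residual and 1.42 prior degrees of freedom). P-values are two-sided, adjusted by Benjamini-Hochberg over 23675 probe sets and called at 0.05. The fit was tested on simulated data. Figures and sequence searches used Python 3.11.15, pandas 2.3.3 and matplotlib 3.10.9.

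The animal is a block because the titles name it. Same-animal arrays deviated from their region means with correlations of -0.05 to 0.20 across probe sets (mean 0.08, 9 pairs, 4 above 0.1), arrays of different animals with -0.18 to 0.15 (mean -0.04, 18 pairs). With 3 animals, the number of arrays limits the precision. Identical values (tolerance 1e-06) on all 3 arrays of a region occurred at 1147 tested probe sets in dorsal, 1804 in intermediate and 1181 in ventral cord, and they shrink the measured spread.

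The members and gene lists were chosen with earlier results of these data known. Named genes were all member probe sets, the 3 genes nearest to each member, both reported targets, and, from a list, up to 4 called genes with the largest differences in each comparison. Each gene outside the members is given at its brightest probe set (highest mean of the 9 arrays). Summed levels are log2 of the sum of the listed genes' linear values. Only values of 1 probe set are compared between regions. The alternatives tried changed the block, scaling, filter, variance model, probe set choice and arrays used.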

Additional observations from a re-analysis of the deposited data

How the results depend on the processing

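No member difference turned its direction in any alternative fit. The intermediate minus ventral calls of all 4 brightest probe sets, and the dorsal minus ventral calls of Bcl11a, Bcl11b and Satb1, held in every fit that tested them. Dorsal minus intermediate depended most on the settings: 2 members passed, against 4 after median centring, 4 with a trended robust variance and 1 to 3 when an animal or array was left out. Bcl11b at its brightest probe set passed there in 7 of 19 alternatives. Without the replicate block, which rests on the pairing by animal, the probe sets called were 14370, 12494 and 8441 for dorsal minus ventral, intermediate minus ventral and dorsal minus intermediate, against 14130, 12317 and 8052 with it, and no member call changed. Over the single probe sets of the members and the reported targets Cdh11 and Frzb, 829 results stayed on their side of the threshold. A further 22 passed and 46 failed only in an alternative. With 1 probe set per gene they were 7564, 6907 and 4456, since fewer features were tested. Leaving out an animal or array gave 10836 to 13807, 8803 to 12196 and 3221 to 7123, the last being 4214, 4893 and 3221 without animals 1, 2 and 3. Only the 2 regions compared gave 4777 for dorsal minus intermediate. The cause was not tested. Restricting the test to probe sets with 9 distinct values, chosen after seeing the data, left 1 brightest member probe set, that of Satb1, with 1, 1 and 0 calls. Leaving out 1 animal moved the Bcl11a over Bcl11b change to -1.68 to -1.07, -1.25 to -0.63 and -0.49 to -0.43, and pairing it by animal gave an exact sign-flip p of 0.25, the smallest possible. The planned test of Prdm8 over Bhlhe22 was not run because Bhlhe22 was not analysed here. Signal near the floor limits 1439449_at of Satb1, 1447334_at, 1426552_a_at and 1447335_x_at of Bcl11a, 1450339_a_at, 1452966_at and 1438784_at of Bcl11b and 1448424_at of Frzb.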
